A study of Mus musculus with 16 samples.

Results

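Immediate early genes are switched on within minutes of a stimulus without new protein synthesis, and 10 of them were followed through the hearts of a Cardinal knockout study: Fos, Fosb, Jun, Junb, Atf3, Egr1, Nr4a1, Myc, Ier2 and Ier3. They were taken from a table of 55487 genes as the rows whose Ensembl identifier carries these symbols, and each symbol matched 1 row. All 10 passed the filter on low counts and stood among the 18275 genes tested. Cardinal (Gm12295) is a long noncoding RNA, a transcript that is not translated into protein. Poly(A) RNA was sequenced from the heart apex of 16 male mice taken 4 weeks after surgery, with 4 libraries in each group and 1 mouse per library. Transverse aortic constriction (TAC) narrows the aorta so that the left ventricle pumps against a raised pressure, and sham surgery leaves out the constriction. Ctrl sham and Ctrl TAC mice were labelled WT, and KO sham and KO TAC mice were labelled CARDINAL-KO, a deletion made with CRISPR/Cas9. The strain, the age and the deleted part of the gene are not given in the sources used here, and no Cre or transgene is named for any group.

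The products of these genes are mostly transcription factors. Fos, Fosb, Jun, Junb and Atf3 carry a basic leucine zipper and pair with each other or with related proteins to form AP-1 and ATF dimers on DNA. In heart muscle, stretch, adrenergic and angiotensin signals reach them through MAP kinases, serum response factor and CREB, and their RNAs decay quickly once the stimulus ends. An acute rise of Fos, Jun, Egr1 and Myc within the first hours of pressure overload is a textbook feature of cardiac hypertrophy, whereas the hearts here were loaded for 4 weeks.

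Libraries held 53169437 to 79404714 counts, and 24458 to 26388 genes with at least 1 count. Levels are given as CPM, counts set against the TMM-scaled library total, and as RPKM, the same per kilobase of annotated exon, where genes are compared with each other. Cardinal was present at 3.24 to 3.86 CPM in Ctrl sham, 2.69 to 8.02 CPM in Ctrl TAC, 0.297 to 0.553 CPM in KO sham and 0.276 to 0.371 CPM in KO TAC 1, 2 and 3. The library labelled KO TAC 4 had 4.55 CPM, a level of the Ctrl libraries, so its Cardinal level goes against its label, and the calls of the 10 genes and of the gene lists that rest on the KO TAC group are also given without it. The animal numbers of Ctrl TAC 2, 3 and 4 and of the library labelled KO TAC 4 start with 25, and those of the other 12 libraries start with 3. Of those 12, KO sham 1, 2 and 3 and Ctrl sham 4 have numbers that start with 33. What the numbers stand for is not given in the labels.

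Promoters are shown for Fos and Junb and for Jun and Nr4a1, because the members of each pair varied together from heart to heart, as described further on. Each runs from 250 bases before to 50 bases after the start site of RefSeq (GRCm38.p6), 5′ to 3′ on the strand of the gene. Capitals mark TGACG or its reverse complement CGTCA (the core that CREB and ATF proteins recognise), TGACATCA (an AP-1 and ATF element) and TATAA (the core of a promoter element near many start sites). Such windows were at hand for 7 of the 10 genes, namely Fos, Fosb, Jun, Junb, Atf3, Nr4a1 and Ier3.
Fos, chr12:85473640-85473939, plus strand: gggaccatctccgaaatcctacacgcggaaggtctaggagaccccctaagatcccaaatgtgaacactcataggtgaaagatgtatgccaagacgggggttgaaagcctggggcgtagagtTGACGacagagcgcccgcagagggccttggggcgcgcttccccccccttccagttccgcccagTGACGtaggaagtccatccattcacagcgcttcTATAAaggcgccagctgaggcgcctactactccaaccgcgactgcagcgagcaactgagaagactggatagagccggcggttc
Junb, chr8:84978699-84978998, minus strand: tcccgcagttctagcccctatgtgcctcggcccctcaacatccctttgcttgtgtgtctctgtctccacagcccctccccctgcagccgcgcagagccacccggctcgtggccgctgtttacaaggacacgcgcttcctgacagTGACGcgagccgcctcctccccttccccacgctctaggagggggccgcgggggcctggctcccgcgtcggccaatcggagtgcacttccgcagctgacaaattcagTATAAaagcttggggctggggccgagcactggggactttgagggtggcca
Jun, chr4:95052173-95052472, minus strand: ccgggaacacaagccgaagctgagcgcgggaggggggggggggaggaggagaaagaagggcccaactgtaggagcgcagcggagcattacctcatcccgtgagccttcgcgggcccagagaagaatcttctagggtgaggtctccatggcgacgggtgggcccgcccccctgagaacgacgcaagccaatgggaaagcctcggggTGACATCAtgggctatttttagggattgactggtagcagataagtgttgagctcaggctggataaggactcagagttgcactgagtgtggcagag
Nr4a1, chr15:101266596-101266895, plus strand: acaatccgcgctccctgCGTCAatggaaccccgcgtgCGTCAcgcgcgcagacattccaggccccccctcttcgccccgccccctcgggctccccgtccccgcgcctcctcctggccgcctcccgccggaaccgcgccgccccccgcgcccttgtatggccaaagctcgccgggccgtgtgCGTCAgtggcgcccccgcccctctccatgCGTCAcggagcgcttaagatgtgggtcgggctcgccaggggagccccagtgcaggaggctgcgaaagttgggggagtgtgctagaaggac

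The Fos window holds TGACG at 129 and 66 bases before the start site, and the Junb window holds it at 106 bases before. The Nr4a1 window holds 4 copies in the reverse orientation (CGTCA). Fosb and Atf3 hold 1 each, so that 5 of the 7 windows match TGACG on either strand, against 20.8% of 32851 promoter windows of the same length. TGACATCA was found on either strand in 3.62% of all windows and in 1 of the 7, that of Jun, at 45 bases before the start site. TATAA on the strand of the gene was found in 17.5% of all windows and in 3 of the 7 (Fos, Junb and Ier3). It begins 33 bases before the start site in Fos and 58 bases before in Ier3. In Junb it begins at the RefSeq start site itself. GCGNGGGCG, the motif of Egr proteins, was found on either strand in 5.55% of all windows and in the windows of Fosb and Nr4a1. The full sites TGACGTCA and TGANTCA and the CArG box of serum response factor were found in none of the 7 windows, against 1.79%, 7.81% and 1.63% of all windows. TGACG lies within TGACGTCA, and the other motifs searched do not contain each other. These matches describe the printed letters only, and a motif can lie outside the window.

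Within sham hearts the 10 genes stood at very different levels per length. Mean RPKM in Ctrl sham was highest for Ier3 (26.6 ± 5.17; SD, n = 4, as for the following) and Jun (19.6 ± 4.49). It was intermediate for Nr4a1 (7.75 ± 4.92), Ier2 (5.84 ± 1.30), Junb (4.21 ± 1.85), Atf3 (2.78 ± 1.84) and Egr1 (2.02 ± 1.63), and the intervals of 1 SD of neighbours in this order overlap. Fos (1.02 ± 1.01), Myc (0.763 ± 0.166) and Fosb (0.0688 ± 0.0235) were lowest, and the Fosb level rested on 18 to 97 counts in a library. In KO TAC the order by mean RPKM began again with Ier3 (41.0 ± 3.14), Jun (34.6 ± 6.23) and Nr4a1 (18.2 ± 4.37), and Atf3 (13.7 ± 5.84) stood above Junb (10.4 ± 3.08) and Ier2 (9.54 ± 2.38), 3 levels that differ by less than the SD of Atf3. Replicates are separate animals, so the spread is that between hearts.

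**Figure D1:**
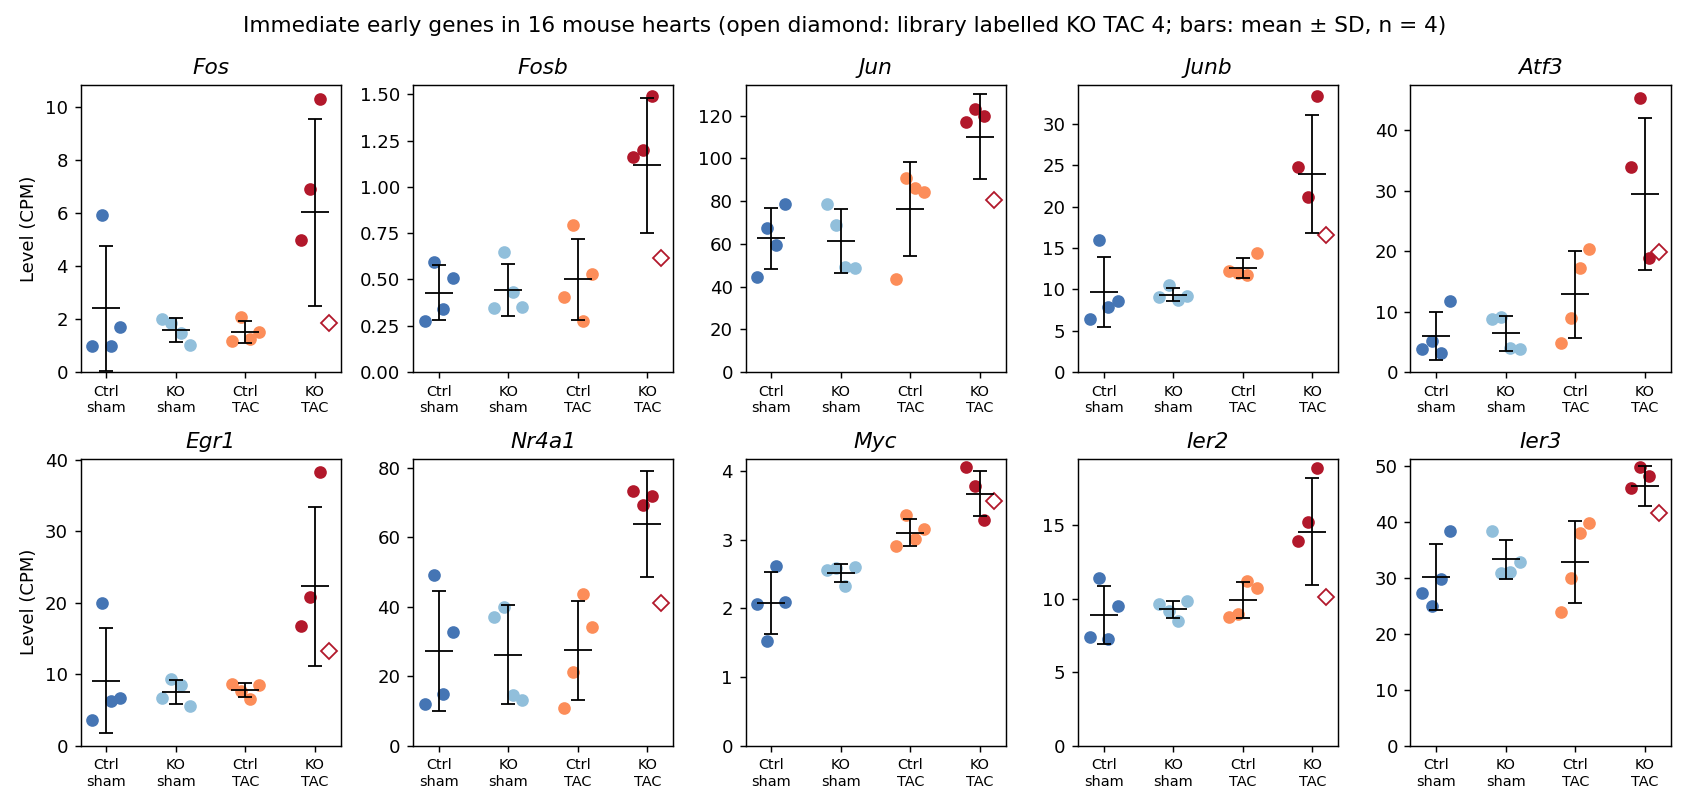
Level (CPM, linear axes starting at 0) of each of the 10 genes in each of the 16 libraries, by group, with bars for the mean ± SD of 4 libraries. The open diamond is the library labelled KO TAC 4. KO TAC 1, 2 and 3 lie above all 4 KO sham libraries in every panel, as in 20.1% of all genes tested, and the open diamond lies below them in 8 of the 10 panels, as in 23.5% of all genes.

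Among the Fos and Jun proteins, Fos itself (chr12:85473890-85477273, plus strand, GRCm38 as for the following positions), the classic stimulus marker, was at 4.99, 6.89 and 10.3 CPM in KO TAC 1, 2 and 3 and at 1.86 CPM in the library labelled KO TAC 4. Ctrl TAC 1 to 4 had 1.18, 2.08, 1.25 and 1.49 CPM. Ctrl sham 1 to 4 had 0.974, 5.91, 0.997 and 1.70 CPM, and KO sham 1 to 4 had 2.01, 1.84, 1.48 and 1.00 CPM. High Fos was thus found in 3 KO TAC hearts and in a single sham heart, Ctrl sham 2, which stood above KO TAC 1. Fos rose after TAC in KO mice (log2 fold change 1.91, SE 0.60, edgeR adjusted p = 0.0241). In Ctrl mice the log2 fold change was -0.68 (SE 0.61, adjusted p = 0.494), a mean that rests on Ctrl sham 2, since it was 0.31 without that library.

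Fosb (chr7:19302696-19310051, minus strand), a close relative of Fos whose truncated product builds up under repeated stimulation, was at 1.16, 1.2 and 1.49 CPM in KO TAC 1, 2 and 3 and at 0.615 CPM in the library labelled KO TAC 4. Its range was 0.274 to 0.792 CPM in Ctrl TAC, 0.278 to 0.594 CPM in Ctrl sham and 0.348 to 0.647 CPM in KO sham. KO TAC 1, 2 and 3 lay above all 12 libraries of the other groups, which overlapped each other. The rise after TAC in KO mice was 1.32 log2 (SE 0.34, adjusted p = 0.00542), against 0.23 log2 in Ctrl mice (SE 0.35, adjusted p = 0.71).

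Junb (chr8:84974484-84978718, minus strand), a Jun protein that is a weaker activator than Jun, was at 24.8, 21.2 and 33.3 CPM in KO TAC 1, 2 and 3 and at 16.5 CPM in the library labelled KO TAC 4. Ctrl TAC 1 to 4 had 12.2, 12, 11.7 and 14.4 CPM. KO sham 1 to 4 had 9.03, 10.5, 8.76 and 9.17 CPM, and Ctrl sham 1 to 4 had 6.38, 15.9, 7.88 and 8.57 CPM. All 4 KO TAC libraries exceeded every library of the other 3 groups, and apart from Ctrl sham 2 the sham libraries all lay below the Ctrl TAC libraries. Junb rose by 1.35 log2 after TAC in KO mice (SE 0.25, adjusted p = 0.000796), the smallest adjusted p of the 10 genes in this comparison. The change in Ctrl mice was 0.38 log2 (SE 0.25, adjusted p = 0.335), and it was 0.73 log2 with an adjusted p of 0.0143 without Ctrl sham 2.

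Jun (chr4:95049034-95052222, minus strand), the founding AP-1 protein, was at 117, 123 and 120 CPM in KO TAC 1, 2 and 3 and at 80.7 CPM in the library labelled KO TAC 4. Ctrl TAC 1 had 43.5 CPM, and Ctrl TAC 2, 3 and 4 had 90.6, 86.2 and 84.4 CPM. Sham libraries of both genotypes ranged from 44.6 to 78.8 CPM. Ctrl TAC 1 was thus the lowest of all 16 libraries, and the library labelled KO TAC 4 fell just below Ctrl TAC 2, 3 and 4. The rise in KO mice was 0.84 log2 (SE 0.25, adjusted p = 0.0189) and that in Ctrl mice 0.29 log2 (SE 0.25, adjusted p = 0.483). Jun and Junb share exonic bases with a gene on the other strand, Junos and Prdx2. Whether reads were counted by strand is not given in the sources used here, so their counts are uncertain to that extent. Junos averaged 0.539 to 0.601 CPM over the groups, and Prdx2 was lower after TAC in KO mice (-0.18 log2, adjusted p = 0.00401), the opposite direction to Junb.

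Atf3 (chr1:191170296-191218039, minus strand), a stress-induced ATF protein that forms dimers with Jun proteins and can repress its targets, had the widest range of the 10 genes over the 16 libraries, from 3.21 to 45.3 CPM or 14.1-fold. KO TAC 1 to 3 had 33.9, 45.3 and 18.9 CPM, and the library labelled KO TAC 4 had 19.8 CPM. Ctrl TAC 1 to 4 had 4.87, 8.93, 17.2 and 20.4 CPM, while sham libraries ranged from 3.21 to 11.8 CPM. KO TAC lay above all sham libraries, but Ctrl TAC 4 reached into the KO TAC range. The rise in KO mice was 2.20 log2, or 4.59-fold (SE 0.55, adjusted p = 0.00722). In Ctrl mice it was 1.13 log2 with a large error (SE 0.54, adjusted p = 0.176), and it was called (1.59 log2, adjusted p = 0.0414) with a model term for the 4 sham animals whose numbers start with 33.

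Among the zinc finger factors, Egr1, a direct target of serum response factor, was at 16.8, 20.8 and 38.3 CPM in KO TAC 1, 2 and 3 and at 13.3 CPM in the library labelled KO TAC 4. Ctrl TAC ranged from 6.55 to 8.57 CPM, KO sham from 5.59 to 9.36 CPM and Ctrl sham from 3.58 to 19.9 CPM. All 4 KO TAC libraries were above all Ctrl TAC and KO sham libraries, and Ctrl sham 2 again stood high, at 19.9 CPM. Egr1 rose by 1.57 log2 after TAC in KO mice (SE 0.47, adjusted p = 0.0196). The value in Ctrl mice was -0.22 (SE 0.47, adjusted p = 0.804), and 0.52 without Ctrl sham 2.

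Nr4a1 (chr15:101254269-101274795, plus strand) encodes Nur77, an orphan nuclear receptor induced by calcium and adrenergic signals. It was at 73.2, 69.3 and 71.9 CPM in KO TAC 1, 2 and 3 and at 41.0 CPM in the library labelled KO TAC 4. Ctrl TAC 1 to 4 had 11, 21.2, 43.6 and 34.1 CPM. Ctrl sham 1 to 4 had 11.9, 49.1, 14.9 and 32.7 CPM, and KO sham 1 to 4 had 37, 40, 14.6 and 13.3 CPM. Each of these 3 groups held hearts with high and hearts with low Nr4a1, and the difference of 1.28 log2 between KO TAC and KO sham did not pass the test (SE 0.54, adjusted p = 0.0892), although the groups did not overlap. In Ctrl mice the value was 0.02 log2 (SE 0.54, adjusted p = 0.987).

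Myc (chr15:61985391-61990374, plus strand), a driver of growth and ribosome production, was the 1 gene of the 10 called after TAC in both genotypes. It was at 1.52 to 2.62 CPM in Ctrl sham and at 2.90, 3.35, 3.01 and 3.15 CPM in Ctrl TAC 1 to 4. KO sham ranged from 2.32 to 2.60 CPM, and KO TAC 1 to 3 and the library labelled KO TAC 4 had 4.05, 3.78, 3.28 and 3.56 CPM. In both genotypes each TAC library was above each sham library. The rise was 0.58 log2 in Ctrl mice (SE 0.14, adjusted p = 0.00482, or 0.0502 with a model term for animal numbers starting with 25) and 0.54 log2 in KO mice (SE 0.13, adjusted p = 0.00387). The difference between these rises was -0.04 log2 (SE 0.19, adjusted p = 0.962).

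Ier2 (chr8:84661331-84662852, minus strand) and Ier3 (chr17:35821684-35822923, plus strand) are small early response proteins without a leucine zipper, and Ier3 is known as a modulator of apoptosis and MAP kinase signalling. Ier2 was at 13.9, 15.2 and 18.9 CPM in KO TAC 1, 2 and 3 and at 10.1 CPM in the library labelled KO TAC 4, against 8.78 to 11.2 CPM in Ctrl TAC and 7.23 to 11.4 CPM over all sham libraries. Ier3 was at 46.1, 49.7 and 48.2 CPM in KO TAC 1, 2 and 3 and at 41.5 CPM in the library labelled KO TAC 4, against 23.8 to 39.7 CPM in Ctrl TAC and 25.0 to 38.4 CPM over all sham libraries. All KO TAC libraries were highest for Ier3, while for Ier2 the library labelled KO TAC 4 lay within the other groups. In KO mice Ier2 rose by 0.64 log2 (SE 0.17, adjusted p = 0.00679) and Ier3 by 0.48 log2 (SE 0.15, adjusted p = 0.0231). In Ctrl mice the values were 0.16 and 0.13 log2 (adjusted p 0.566 and 0.613).

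**Figure D2:**
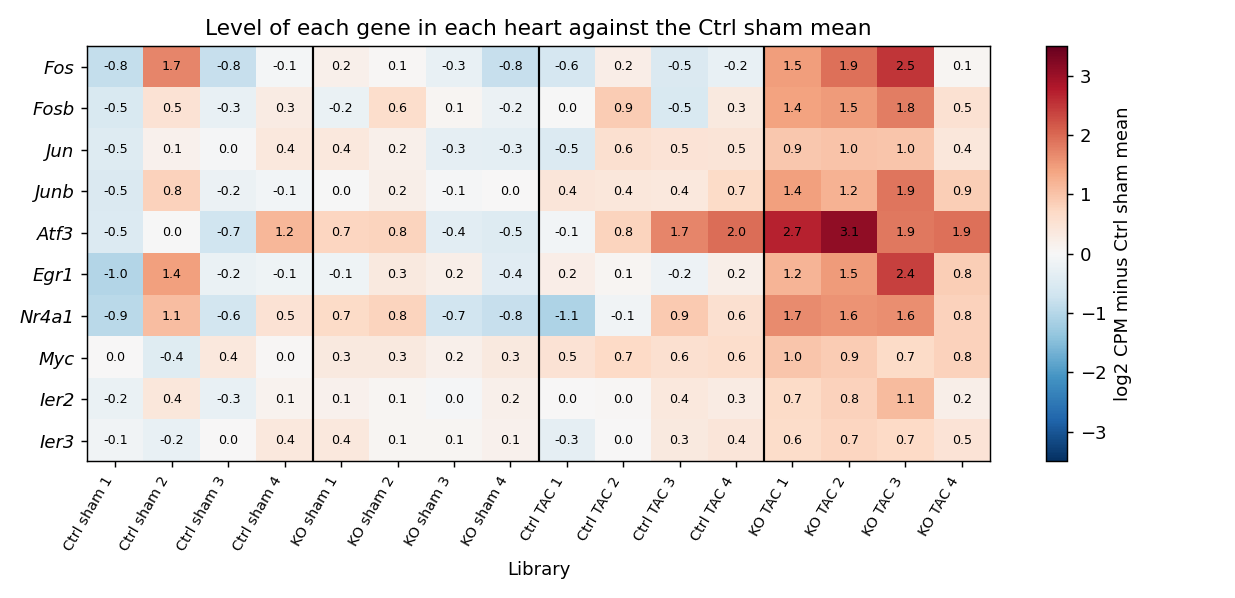
Level of each gene in each library as log2 CPM minus the Ctrl sham mean of that gene, with black lines between the 4 groups and the value printed in each cell. Every cell of the KO TAC libraries is above 0, with the deepest red in KO TAC 1, 2 and 3, while the Ctrl TAC libraries hold cells of both signs.

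The response to TAC at 4 weeks was therefore asked for the 10 genes in each genotype. In Ctrl hearts 1 of 10 was called higher (Myc) and none lower, against 10.4% of all genes tested called higher and 9.60% called lower, and the median log2 fold change was 0.20 against 0.004 over all genes. In KO hearts 9 of 10 were called higher and none lower, against 17.8% and 16.5% of all genes tested, and the median was 1.30 against -0.004. In KO hearts 8 of 10 genes had no overlap between TAC and sham libraries in the higher direction, against 18.0% of all genes. In Ctrl hearts this held for 1 of 10, against 10.5% of all genes. Without the library labelled KO TAC 4 the same 9 genes were called in KO hearts (Nr4a1 adjusted p = 0.0822), beside 16.4% of all genes called higher. In bulk tissue a change in the number of cells that use a gene and a change in RNA per cell cannot be told apart.

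Calls in KO hearts depended on single libraries of KO sham and KO TAC and on the threshold. Without KO sham 4, 5 of the 10 genes were called, and Fos, Jun, Egr1 and Ier3 were not. Without KO TAC 3, Fos, Egr1 and Ier3 were not called (edgeR adjusted p 0.0756, 0.0682 and 0.0555). Ier3 was also not called without KO TAC 2 (adjusted p = 0.0593). With a model term for animal numbers starting with 33, which 3 of the 4 KO sham animals have, 6 genes were called, and Fos, Egr1 and Ier2 were not (adjusted p 0.146, 0.137 and 0.05). The share of all genes called is not given for these alternative fits.

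**Figure D3:**
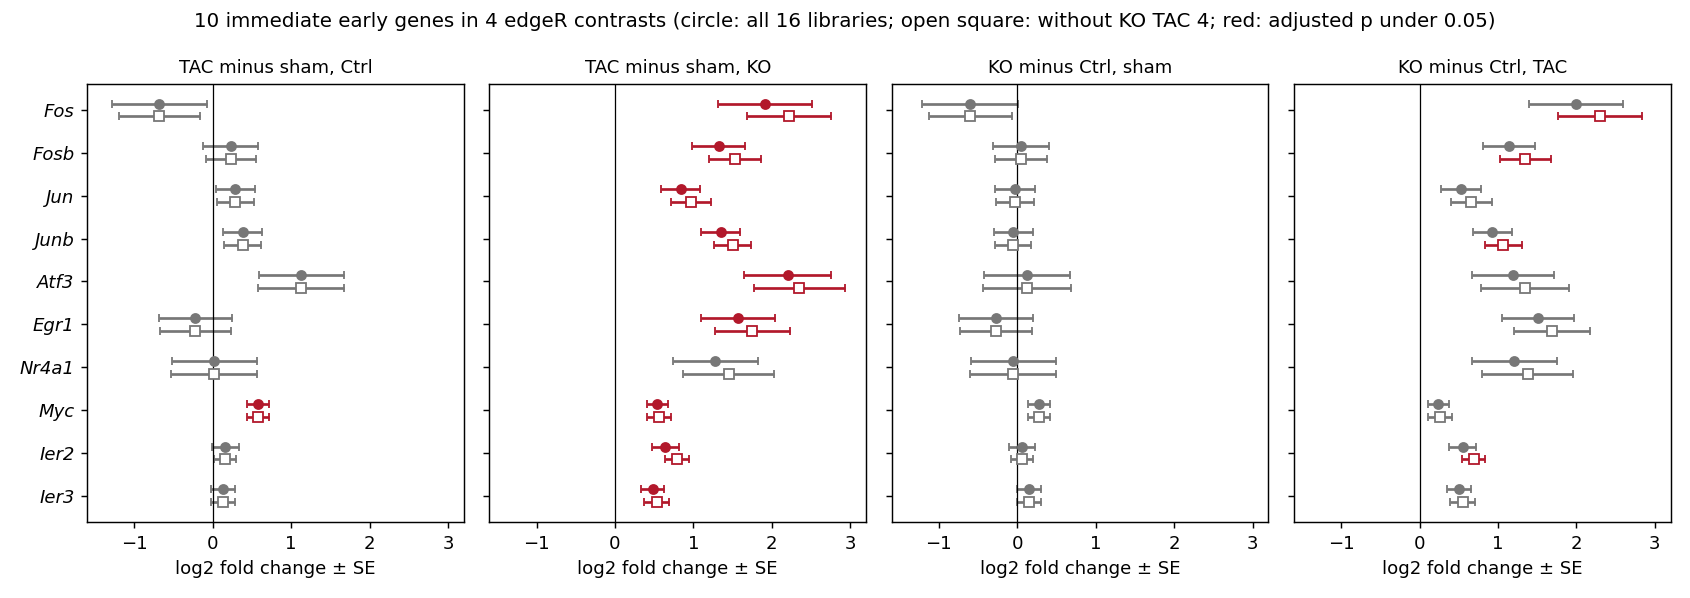
Log2 fold change ± SE of each gene in the 4 comparisons between groups, from edgeR with all 16 libraries (circles) and without the library labelled KO TAC 4 (open squares). Red marks an adjusted p under 0.05. Circles are red for 9 genes in KO hearts after TAC and for Myc in Ctrl hearts, and in the comparison of KO TAC with Ctrl TAC only 4 open squares are red.

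In unloaded hearts the question was whether deletion of Cardinal alone changes these genes. None of the 10 was called in edgeR between KO sham and Ctrl sham, none had an unadjusted p under 0.05, and DESeq2 called 0 as well. Of all genes 0% was called in edgeR. Log2 fold changes were between -0.60 (Fos, SE 0.61) and 0.28 (Myc, SE 0.14), and the libraries of the 2 groups overlapped for each of the 10 genes. The error was large for the most variable members: SE was 0.55 for Atf3 and 0.54 for Nr4a1, so a change of 1 log2 in these genes would be smaller than 2 SE. The values of Fos and Egr1 changed sign without Ctrl sham 2, to 0.39 and 0.47.

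In loaded hearts all 10 genes had a higher mean level in KO TAC than in Ctrl TAC, but none was called in edgeR over the 16 libraries, against 1.36% of all genes called higher and 1.32% lower. Adjusted p ranged from 0.059 (Junb) to 0.34 (Myc). An unadjusted p under 0.05 in the higher direction was found for 8 of 10 genes, against 9.27% of all genes, and DESeq2 called 6 of 10 higher (Fos, Fosb, Junb, Egr1, Ier2 and Ier3), against 3.75% of the 16120 genes to which it gave an adjusted p. The log2 fold change was 1.99 for Fos (SE 0.60, adjusted p = 0.0916), 1.51 for Egr1 (SE 0.46, adjusted p = 0.10), 1.14 for Fosb (SE 0.33, adjusted p = 0.0693) and 0.93 for Junb (SE 0.25). It was 1.21 for Nr4a1 (SE 0.54, edgeR adjusted p = 0.254) and 1.19 for Atf3 (SE 0.52, adjusted p = 0.243). It was 0.50 for Ier3 (SE 0.15), 0.55 for Ier2 (SE 0.17), 0.53 for Jun (SE 0.25) and 0.24 for Myc (SE 0.13). Junb, Egr1 and Ier3 had no overlap between the libraries of the 2 groups, 3 of 10 against 5.55% of all genes. The KO TAC libraries enter both this comparison and that with KO sham, so the 2 sets of values are not separate evidence.

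The comparison gave other calls without the library labelled KO TAC 4. Fos (2.3 log2, SE 0.54, edgeR adjusted p = 0.046), Fosb (1.35 log2, SE 0.33, adjusted p = 0.0388), Junb (1.07 log2, SE 0.24, adjusted p = 0.0377) and Ier2 (0.69 log2, SE 0.15, adjusted p = 0.0246) were then higher in KO TAC than in Ctrl TAC, 4 of 10 against 1.28% of all genes. Egr1 had an adjusted p of 0.0911 and Ier3 one of 0.0996. Jun, Atf3, Nr4a1 and Myc had 0.199, 0.231, 0.237 and 0.378. Calls changed with other libraries too: Fos, Junb and Egr1 were called without Ctrl sham 2, Junb without Ctrl sham 1 and Ier3 without Ctrl TAC 4. Sham libraries are not part of this comparison, and enter it only through the model fitted to all groups, which share an estimate of the spread. The log2 fold changes of Fos, Junb and Egr1 stayed at 1.99, 0.93 and 1.51 without Ctrl sham 2. Without both the library labelled KO TAC 4 and Ctrl TAC 2 only Fosb was called (1.66 log2, adjusted p = 0.0309).

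The library labelled KO TAC 4 was below each of KO TAC 1, 2 and 3 for 8 of 10 genes, the exceptions being Atf3 and Myc, against 23.5% of all genes tested. Its level was 0.252 times the mean of KO TAC 1, 2 and 3 for Fos, 0.479 times for Fosb and 0.525 times for Egr1. Against the 4 Ctrl TAC libraries it was above all for Junb, Egr1, Myc and Ier3, 4 of 10 against 20.0% of all genes, and within their range for the other 6 genes.

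Since Ctrl TAC 2, 3 and 4 and the library labelled KO TAC 4 share the animal numbers starting with 25, the comparison was repeated within each series of numbers. Among animals with numbers starting with 3, KO TAC 1, 2 and 3 were above the only Ctrl TAC library, Ctrl TAC 1, in 10 of 10 genes, against 30.1% of all genes tested. Ctrl TAC 1 was the lowest of all 16 libraries for Jun, Nr4a1 and Ier3. The mean of KO TAC 1, 2 and 3 was 6.26 times the level of Ctrl TAC 1 for Fos, 6.70 times for Atf3, 6.50 times for Nr4a1 and 1.28 times for Myc. Among animals with numbers starting with 25, the library labelled KO TAC 4 was above Ctrl TAC 2, 3 and 4 for 4 of 10 genes (Junb, Egr1, Myc and Ier3), against 26.6% of all genes, below them for Jun and within their range for the other 5. With a model term for these numbers the log2 fold changes stayed above 0 for all 10 genes, from 0.26 (Myc) to 1.47 (Atf3), and adjusted p ranged from 0.19 to 0.525. Genotype and animal number are nearly the same division of the TAC libraries, so their parts in the difference cannot be told apart.

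Whether the response to TAC itself differed between genotypes was tested as the interaction. None of the 10 genes was called in edgeR (adjusted p 0.294 to 0.962), against 0.0109% of all genes, and DESeq2 called 0. The interaction was above 0 for 9 of 10 genes, and 4 had an unadjusted p under 0.05 in the higher direction (Fos, Fosb, Junb and Egr1), against 5.76% of all genes. The largest values were 2.59 log2 for Fos (SE 0.85) and 1.78 log2 for Egr1 (SE 0.66). Without the library labelled KO TAC 4, 0 of 10 were called as well, with 2.89 log2 for Fos (SE 0.75, adjusted p = 0.2) and 1.97 log2 for Egr1 (adjusted p = 0.298). A call in KO hearts and none in Ctrl hearts thus does not show that the response differed. The interaction also uses the Ctrl TAC libraries, most of which differ from the sham libraries in the start of their animal numbers.

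These genes varied widely between hearts of the same group. The within-group SD of log2 CPM was 0.84 for Fos, 0.80 for Nr4a1, 0.78 for Atf3 and 0.64 for Egr1, all above the 90th percentile of the 18275 genes. Fosb (0.51), Jun (0.38) and Junb (0.36) were between the 75th and the 90th percentile. Ier2 (0.26), Ier3 (0.23) and Myc (0.18) were lower, against a median of 0.17 over all genes. Among genes of similar level, within 0.5 log2, Atf3 was at percentile 99.9, Nr4a1 at 99.8, Egr1 at 99.7, Jun at 99.4 and Fos at 99.3, while Myc was at 30.6. Over the 8 sham libraries alone the highest level was 6.06 times the lowest for Fos, 5.55 times for Egr1 and 4.11 times for Nr4a1, and 1.53 times for Ier3. These percentiles describe the spread and carry no test.

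Members varied together within groups. Deviations from the group mean were correlated over the 16 libraries, where both genes of a pair are read from the same library and share its depth, and 12 degrees of freedom remain after the group means. The library labelled KO TAC 4 was counted under its label here too, so its low values for every gene enter these r. The median Pearson r of the 45 pairs was 0.48, with a range from -0.64 to 0.93. Sets were read from the matrix after it was seen. Fos, Fosb, Junb, Egr1 and Ier2 had r of 0.48 to 0.93 among themselves (10 pairs, median 0.78). They were led by Junb with Egr1 (r = 0.93, Spearman rho 0.65, r = 0.78 without Ctrl sham 2 and KO TAC 3). Fos with Junb had r = 0.87 (rho 0.65, r = 0.71 without Ctrl sham 2 and the library labelled KO TAC 4). The 2 libraries left out were those most distant for the first gene named in each pair. Jun, Atf3, Nr4a1 and Ier3 had r of 0.51 to 0.84 (6 pairs, median 0.78), led by Jun with Nr4a1 (r = 0.84).

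Between the 2 sets r was -0.16 to 0.69 (20 pairs, median 0.39). Atf3 and Egr1, both known stress-induced factors, had r = 0.04, and Fos and Ier3 had r = 0.04. Hearts that were high in one set need not be high in the other: Ctrl sham 2 was highest of its group for Fos, Junb and Egr1 (5.91, 15.9 and 19.9 CPM), whereas Ctrl sham 4 was highest of its group for Jun, Atf3 and Ier3 (78.7, 11.8 and 38.4 CPM). KO TAC 3 was likewise the highest of all libraries for Fos, Fosb, Junb, Egr1 and Ier2, and the lowest of its group for Atf3. Nr4a1, of the second set, went the other way in Ctrl sham. It was highest in Ctrl sham 2 (49.1 CPM), above Ctrl sham 4 (32.7 CPM). Its r was 0.69 with Ier2 and 0.66 with Fos, against 0.51 with Ier3, 0.79 with Atf3 and 0.84 with Jun of its own set. The 2 sets are thus not sharply divided. Myc went with neither set, and its r was negative with 6 of the other 9 genes. Of the printed promoters, Fos and Junb belong to the first set and Jun and Nr4a1 to the second, and TGACG is found in windows of both.

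**Figure D4:**
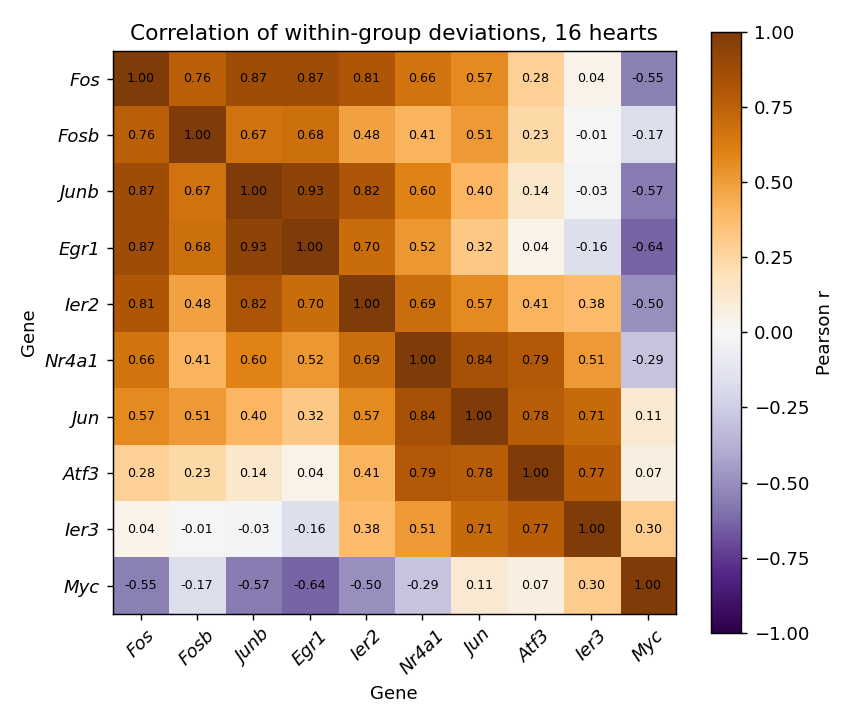
Pearson r between each pair of the 10 genes over the deviations of log2 CPM from the group means (16 libraries), coloured from -1 to 1 with the value in each cell. Fos, Fosb, Junb, Egr1 and Ier2 form a block in the upper left with r of 0.48 to 0.93, Nr4a1, Jun, Atf3 and Ier3 a block with r of 0.51 to 0.84, and Myc is mostly negative.

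Genes with the pattern over hearts most like the members were sought by the correlation of their within-group deviations with the mean scaled deviation of the 10, among the 10120 genes whose average log2 CPM reached 2. The highest r was found for Ugcg (0.94), the first enzyme of glycosphingolipid synthesis, Ctnnb1 (0.94), which encodes beta-catenin, Btg2 (0.93), an antiproliferative early response gene, and Fosl2 (0.93), a further Fos protein. Cacnb1 (0.88), Actg1 (0.87), Sik1 (0.86), Snx8 (0.85), Man1c1 (0.85) and Apold1 (0.84) followed. The lowest r was found for Smyd1 (-0.86), a muscle methyltransferase, Clec1a (-0.84), mt-Tl1 (-0.83), Zc3h14 (-0.83) and Slc25a46 (-0.82). The scale of variation differed widely, with a within-group SD of 0.40 log2 for Btg2 and 0.06 log2 for Ctnnb1. The mean scaled deviation was lowest in the library labelled KO TAC 4 (-1.07), next to Ctrl sham 1 (-0.94). Ctnnb1, for example, was at 347 CPM in the library labelled KO TAC 4 and at 379 to 382 CPM in KO TAC 1, 2 and 3. These r values thus rest in part on that library, and no ranking without it is given. Of the 10 genes with the highest r, Fosl2 (1.18 log2, adjusted p = 0.0239), Btg2 (1.17 log2, adjusted p = 0.0422) and Actg1 (0.48 log2, adjusted p = 0.021) were called higher in KO TAC than in Ctrl TAC. All 3 were also called without the library labelled KO TAC 4, as was Apold1 (1.94 log2, adjusted p = 0.0212). Of all genes tested 1.36% were called higher in this comparison, or 1.28% without that library. The ranking by r used the same KO TAC libraries, so these calls are not separate evidence.

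Other early response genes, outside the 10, were followed as a list of 54, of which 52 were tested. In Ctrl hearts 11 were called higher after TAC and 1 lower, and in KO hearts 25 higher and 2 lower, or 26 and 2 without the library labelled KO TAC 4, with medians of 0.18 and 0.38 log2. Of all genes tested, 10.4% were called higher and 9.60% lower in Ctrl hearts, and 17.8% and 16.5% in KO hearts. Between KO TAC and Ctrl TAC 11 were called higher (Fosl2, Egr2, Egr3, Nr4a2, Dusp5, Dusp6, Btg2, Maff, Plk3, Nfkbiz and Thbs1) and 0 lower, with a median of 0.34 log2, and 10 were called higher without the library labelled KO TAC 4, when Dusp6 had an adjusted p of 0.0688. Between KO TAC and Ctrl TAC, 1.36% of all genes were called higher and 1.32% lower, or 1.28% higher without the library labelled KO TAC 4. In sham hearts and in the interaction 0 were called, beside 0% and 0.0109% of all genes.

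Ccn1, a secreted matricellular protein, rose in Ctrl hearts by 0.77 log2 (adjusted p = 2.27e-07) and in KO hearts by 0.82 log2 (adjusted p = 3.04e-08), and its difference between KO TAC and Ctrl TAC was -0.01 log2 (adjusted p = 0.963). Thbs1, which encodes thrombospondin, was at 3.53 ± 0.984 CPM in Ctrl sham, 15.2 ± 2.72 CPM in Ctrl TAC and 28.5 ± 1.49 CPM in KO TAC (SD, n = 4), and was higher in KO TAC than in Ctrl TAC by 0.91 log2 (adjusted p = 0.0183). Ccn2, a profibrotic relative of Ccn1, rose in Ctrl and KO hearts by 1.84 and 2.41 log2 (adjusted p = 1.48e-05 and 4.5e-07). Ptgs2, the inducible cyclooxygenase, rose by 1.94 and 2.64 log2 (adjusted p = 5.61e-05 and 6.31e-07). Nfkbiz, a nuclear regulator of NF-kappaB targets, rose by 0.42 and 0.89 log2 (adjusted p = 0.0105 and 4.75e-06) and was higher in KO TAC than in Ctrl TAC by 0.46 log2 (adjusted p = 0.0296).

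Relatives of Egr1 and Nr4a1 were called higher as well. Egr2 was at 0.194 ± 0.149 CPM in Ctrl sham, 0.932 ± 0.473 CPM in Ctrl TAC and 3.82 ± 1.70 CPM in KO TAC (SD, n = 4), and was called in all 3 comparisons that involve TAC hearts, with 2.02 log2 between KO TAC and Ctrl TAC (adjusted p = 0.0242). Egr3 rose in Ctrl and KO hearts by 1.97 and 2.64 log2 (adjusted p = 4.31e-05 and 5.07e-07), and by 0.97 log2 between Ctrl TAC and KO TAC (adjusted p = 0.0353). Egr2 and Egr3 thus rose after TAC in Ctrl hearts, where Egr1 was not called. Nr4a2 was higher in KO TAC than in Ctrl TAC by 1.36 log2 (adjusted p = 0.0102), and so was Nab2, a co-repressor of Egr proteins, by 0.53 log2 (adjusted p = 0.0239). Of 6 genes tested in this family list, 2 were called higher in Ctrl hearts after TAC, 5 in KO hearts (4 without the library labelled KO TAC 4) and 4 between KO TAC and Ctrl TAC (4 without that library), and 0 were called lower. The shares of all genes called higher were 10.4%, 17.8% (16.4% without that library) and 1.36% (1.28% without it).

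Of 20 AP-1 and ATF partners tested, 4 were called higher and 1 lower in Ctrl hearts, 6 higher and 2 lower in KO hearts, and 2 higher between KO TAC and Ctrl TAC. The counts with KO TAC hearts were the same without the library labelled KO TAC 4. Of all genes, 10.4% were called higher and 9.60% lower in Ctrl hearts, and 17.8% and 16.5% in KO hearts. Between KO TAC and Ctrl TAC 1.36% were called higher. Mafk, a small Maf protein, rose in Ctrl and KO hearts by 0.51 and 0.77 log2 (adjusted p = 0.00228 and 2.25e-05). Maff, its close relative, rose by 0.43 and 0.80 log2 (adjusted p = 0.027 and 0.00011).

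Of 17 SRF, TCF and CREB regulators, 3 were called higher and 1 lower in Ctrl hearts, beside 10.4% and 9.60% of all genes. In KO hearts 2 were called higher and 2 lower, beside 17.8% and 16.5% of all genes, and these counts became 2 and 0 when the library labelled KO TAC 4 was left out. Between KO TAC and Ctrl TAC 1 was called higher, with and without that library, beside 1.36% and 1.28% of all genes. This 1 was Crem, a CREB relative with repressor forms (0.58 log2, adjusted p = 0.0242). Mef2a fell by 0.45 log2 in Ctrl hearts and fell by 0.28 log2 in KO hearts (adjusted p = 0.00217 and 0.0275), and the call in KO hearts was lost without the library labelled KO TAC 4 (-0.28 log2, adjusted p = 0.0507). Of 30 genes of the MAPK cascade and its feedback inhibitors, 4 were called higher and 5 lower in Ctrl hearts and 11 higher and 6 lower in KO hearts, or 10 and 6 without the library labelled KO TAC 4. Beside these stand the shares of all genes, 10.4% higher and 9.60% lower in Ctrl hearts and 17.8% and 16.5% in KO hearts. Between KO TAC and Ctrl TAC 2 were called higher, beside 1.36% of all genes, the phosphatases Dusp5 and Dusp6 (0.86 and 0.35 log2, adjusted p = 0.0395 and 0.0485). With the library labelled KO TAC 4 left out, Dusp6 was no longer called (0.37 log2, adjusted p = 0.0688), and Dusp5 and Spry4 were (adjusted p = 0.0385 and 0.0434). Spry1, an inhibitor of receptor signalling, rose by 0.50 and 0.55 log2 in Ctrl and KO hearts (adjusted p = 7.13e-05 and 1.02e-05), and Dusp7 fell by 0.31 log2 and fell by 0.48 log2 (adjusted p = 0.00665 and 8.29e-05).

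In the Myc network 0 of 12 genes were called in Ctrl hearts, and 1 higher and 4 lower in KO hearts, or 1 and 3 without the library labelled KO TAC 4. Of all genes, 10.4% were called higher and 9.60% lower in Ctrl hearts, and 17.8% and 16.5% in KO hearts. Between KO TAC and Ctrl TAC 0 were called, beside 1.36% of all genes called higher. Without the library labelled KO TAC 4, Mxd3 was called higher (1.16 log2, adjusted p = 0.0423), beside 1.28% of all genes. Mxd3, a partner of Max that opposes Myc, rose by 1.62 log2 in KO hearts (adjusted p = 0.000238), while Mxi1, of the same family, fell by 0.23 log2 (adjusted p = 0.00511). Heat shock chaperones, another group of stress-induced genes, had 0 of 12 called higher in either genotype, beside 10.4% and 17.8% of all genes. For the most variable chaperones this cannot decide whether they rose, because the unloaded hearts differed too widely. Hspa1a spanned 4.3 CPM (Ctrl sham 2) to 346 CPM (Ctrl sham 4) over these hearts. Its SE for the change after TAC was 1.53 log2 in Ctrl mice and 1.43 log2 in KO mice. The SE of Hspa1b was 1.65 and 1.52 log2. Hspd1, the mitochondrial chaperonin, was the 1 gene of this list called lower in Ctrl hearts (-0.24 log2, adjusted p = 0.0459) and in KO hearts (-0.45 log2, adjusted p = 0.00027, or -0.49 log2 and 0.000405 without the library labelled KO TAC 4). The lists share genes, for example Fosl2, Maff, Egr3 and Dusp6, and their counts are descriptions.

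**Figure D5:**
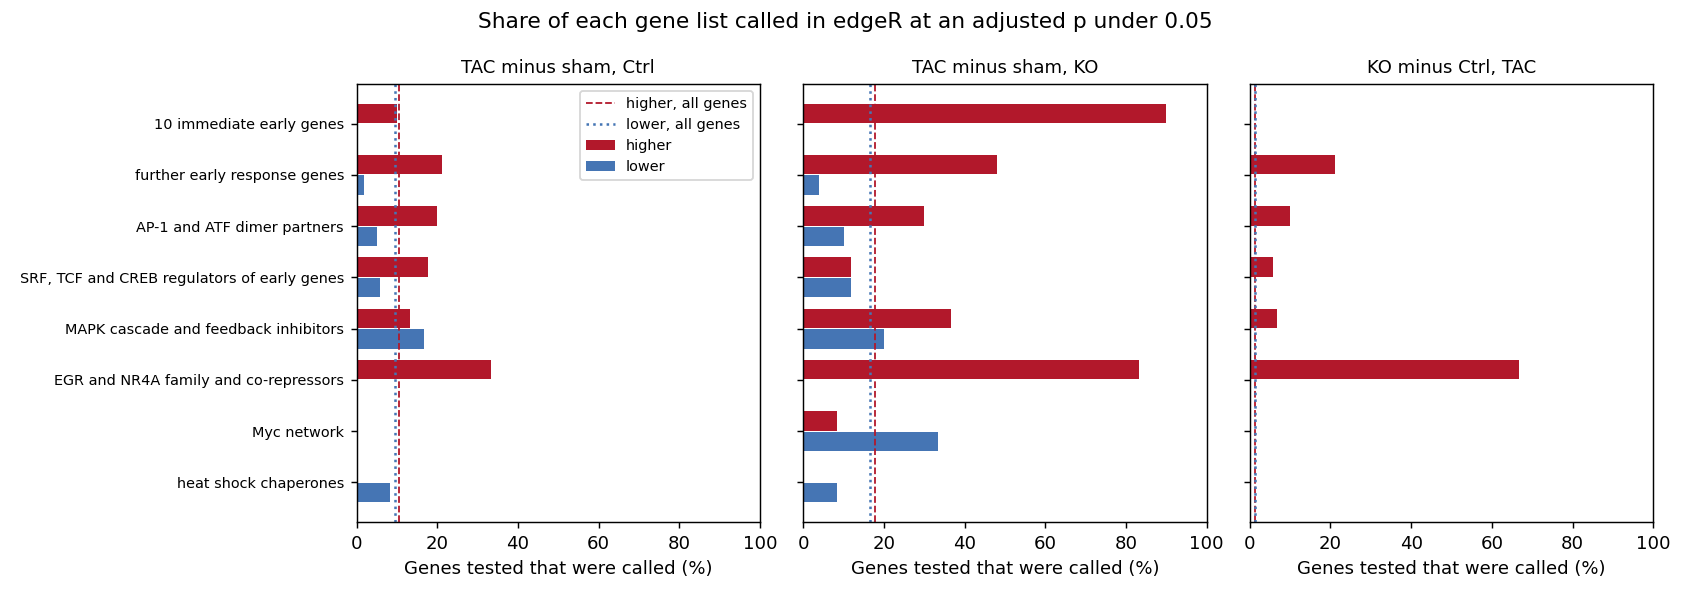
Percentage of the genes tested in each list that were called higher (red bars) or lower (blue bars) at an adjusted p under 0.05 in edgeR, with the percentages over all genes as dashed and dotted lines. The 10 immediate early genes reach 90% in KO hearts after TAC, where the line for all genes is at 17.8%, and 0% between KO TAC and Ctrl TAC.

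Summed levels of some cell type markers differed between KO TAC and Ctrl TAC, while most of the lists had no marker called. Summed levels of 6 cardiomyocyte markers were 42800 to 47700 CPM in Ctrl TAC and 36600 to 39300 CPM in KO TAC, with 1 of the 6 called lower. That 1 was Myh6, with means of 20000 CPM in Ctrl TAC and 15300 CPM in KO TAC. Its edgeR adjusted p was 0.0184, or 0.031 without the library labelled KO TAC 4. Summed levels of 6 fibroblast markers were 948 to 1270 CPM in Ctrl TAC and 1340 to 1500 CPM in KO TAC, with 1 of the 6 called higher, and 516 to 625 CPM over both sham groups. That 1 was Col1a2 (0.40 log2, edgeR adjusted p = 0.0375). It was not called without the library labelled KO TAC 4 (0.42 log2, adjusted p = 0.0507). Pdgfra and Tcf21 differed by 0.05 and 0.08 log2 between KO TAC and Ctrl TAC (adjusted p = 0.852 and 0.819). Red blood cell markers were 530 to 1040 and 1020 to 1380 CPM in Ctrl TAC and KO TAC, with 0 of 5 called. Their part in the differences of the 10 genes was not tested. The library labelled KO TAC 4 had 1370 CPM of fibroblast markers and 38700 CPM of cardiomyocyte markers, both within the range of KO TAC 1, 2 and 3. Macrophage markers (126 to 141 and 129 to 168 CPM) and neutrophil markers (1.53 to 2.45 and 1.80 to 3.43 CPM) overlapped between Ctrl TAC and KO TAC, and the neutrophil marker Ly6g was at 0 in every library. None of the 6 endothelial, 6 smooth muscle and pericyte, 6 macrophage, 4 neutrophil, 6 lymphocyte, 2 atrial, 1 adipocyte and 5 Schwann cell and neuron markers tested was called for KO TAC against Ctrl TAC. Of 5 skeletal muscle markers 1 was called lower, Ckm (-0.21 log2, edgeR adjusted p = 0.0422). Ckm was not called without the library labelled KO TAC 4 (-0.19 log2, adjusted p = 0.0927). It averaged 1500 CPM in Ctrl TAC and 1300 CPM in KO TAC. Myl1 averaged 45.7 and 53.2 CPM, and Myh4, Tnnt3 and Actn3 were lower still, so this list is nearly all Ckm by level. The atrial list, which includes the load-induced gene Nppa, summed to 504 to 1580 CPM in Ctrl TAC and 1990 to 2540 CPM in KO TAC. Of the 2 atrial markers tested, Nppa averaged 1030 CPM in Ctrl TAC and 2320 CPM in KO TAC. Myl4 averaged 1.91 and 1.72 CPM, so the sum is nearly that of Nppa. Genes of the mitochondrial genome held 21.9% to 28.8% of a library's counts.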

How the data were processed

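RNA was sequenced in 150-base pairs after poly(A) selection. Whole-number read counts, not normalized, were deposited by the authors for all genes in 1 table, a column for each mouse. The processing notes name cutadapt 2.3, FastQC, HISAT2 2.1.0, edgeR 3.26.1 and the GRCm38 build. The counting program, its annotation and its use of strand are not given in the sources used here. Columns were matched to samples by the animal number in the titles, and replicates were numbered in sample order.

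Gene names and positions came from GENCODE M21 (GRCm38), which named 55141 (99.4%) of 55487 identifiers, and promoter windows from RefSeq. Counts were filtered with filterByExpr and scaled by TMM in edgeR 4.0.16 (R 4.3.3). A quasi-likelihood model with a mean per group was fitted to all 16 libraries (glmQLFit, robust), and 5 contrasts were tested with glmQLFTest, with Benjamini-Hochberg adjustment over the 18275 genes tested and calls at an adjusted p under 0.05. SE is the absolute log2 fold change over the square root of F. Spread and correlations used log2 CPM with a prior count of 2. Scripts were tested on simulated data.

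The members and lists were chosen with earlier results of these data known. Named genes were all members, the 6 (further early response genes) or 2 (other lists) called genes with the smallest adjusted p in any comparison of 2 groups, and the 10 highest and 5 lowest r. The other list genes named for KO TAC against Ctrl TAC were chosen after their values were seen. Alternatives were RLE size factors, DESeq2 1.42.0, a threshold of 0.01 for the adjusted p, filters that kept genes with 1 count in any library or 10 in each, fits to the 8 libraries compared, terms for animal numbers starting with 25 or with 33, omission of each library in turn and of KO TAC 4 with Ctrl TAC 2, a prior count of 0.5 and Spearman correlation. Further marker lists covered endothelial, smooth muscle, lymphocyte, atrial, adipocyte, skeletal muscle and Schwann cells.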

Additional observations from a re-analysis of the deposited data

Results flagged for a closer look

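In 40 sets of 4 libraries (10 genes in 4 groups), 5 libraries lay further from the rest than Dixon's 95% critical value for the ratio of gap to range, and chance flags about 1 in 20 such sets. Fos in Ctrl sham 2 was at 5.91 CPM, against 0.974 to 1.70 CPM in the other Ctrl sham libraries. Jun in Ctrl TAC 1 was at 43.5 CPM, against 84.4 to 90.6 CPM in Ctrl TAC 2, 3 and 4. The library labelled KO TAC 4, whose Cardinal level goes against its label, was at 80.7 CPM for Jun and 41.0 CPM for Nr4a1, against 117 to 123 CPM and 69.3 to 73.2 CPM in KO TAC 1, 2 and 3. Myc in KO sham 3 was at 2.32 CPM, against 2.56 to 2.60 CPM in the other KO sham libraries, a small absolute gap.

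For Fos and Egr1, every Ctrl TAC heart was below the Ctrl sham mean and every KO TAC heart above the KO sham mean on the linear CPM scale. The Ctrl sham means rest on Ctrl sham 2. On the log2 scale Fos in Ctrl TAC 2 (0.22) and Egr1 in Ctrl TAC 1, 2 and 4 (0.22, 0.06 and 0.2) were above the Ctrl sham mean, and in Ctrl hearts the change after TAC did not pass the test for Fos (-0.68 log2, edgeR adjusted p = 0.494) or Egr1 (-0.22 log2, adjusted p = 0.804). The difference of the responses was 2.59 log2 for Fos and 1.78 log2 for Egr1, and neither passed the interaction test in edgeR (adjusted p 0.294 and 0.341).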

How the results depend on the processing

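No paired analysis was possible because each title carries an animal number of its own and the groups share no replicate numbers. Of 380 log2 fold changes under the alternatives that leave out no single library, 357 kept their direction and their side of the threshold, and of 800 with 1 library left out, 748 did. For TAC in KO hearts 9 genes were called, 5 at an adjusted p under 0.01 and 5 to 9 with 1 library left out. For KO TAC against Ctrl TAC the count of 0 became 6 with DESeq2, 1 without the library labelled KO TAC 4 and Ctrl TAC 2, and 0 to 4 with 1 library left out. For TAC in Ctrl hearts the count of 1 became 0 with a term for numbers starting with 25 (Myc adjusted p = 0.0502), 2 with one for numbers starting with 33, and 1 to 2 with 1 library left out.

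Changes of sign occurred only in values that did not pass the test. For TAC in Ctrl hearts, the term for numbers starting with 25 gave 0.04 for Fos, 0.22 for Egr1, -0.28 for Nr4a1 and -0.02 for Ier3. For KO sham against Ctrl sham, the term for numbers starting with 33 gave -0.15 for Fosb, 0.00 for Junb and -0.43 for Atf3. Without KO TAC 4 and Ctrl TAC 2, Fosb in Ctrl hearts had -0.08 and the Myc interaction was 0.01. With 1 library left out, values in Ctrl hearts after TAC ran from -0.95 to 0.31 for Fos, -0.08 to 0.44 for Fosb, -0.49 to 0.52 for Egr1 and -0.29 to 0.48 for Nr4a1. In sham hearts they ran from -0.87 to 0.39 for Fos, -0.18 to 0.26 for Fosb, -0.17 to 0.10 for Jun, -0.21 to 0.30 for Junb, -0.09 to 0.66 for Atf3, -0.54 to 0.47 for Egr1, -0.32 to 0.41 for Nr4a1 and -0.02 to 0.21 for Ier2. The Myc interaction ran from -0.17 to 0.08. The cause of these shifts was not tested.

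Calls in KO hearts after TAC were lost for Fos at a filter of 1 count in any library (adjusted p = 0.0545), and with 1 library left out for Fos without KO sham 3, KO sham 4 or KO TAC 3, for Egr1 without KO sham 1, KO sham 4 or KO TAC 3, for Jun without KO sham 3 or 4, and for Ier3 without any of 5 libraries. DESeq2 added Nr4a1 (adjusted p = 0.0386). Depth was lowest for Fosb, with 18 to 97 counts in a library. The median within-group SD was 0.41 to 0.46 with 1 library left out, and the median r of the 45 pairs was 0.37 to 0.54, or 0.41 as Spearman rho.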
